A study of Homo sapiens with 6 samples.

Results

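The genes of 10 hormone receptors were followed through the compartment scores of T47D cells: ESR1, ESR2, ESRRG and GPER1, which encode estrogen receptors and their relatives, PGR, NR3C1 and NR3C2, which encode the progesterone, glucocorticoid and mineralocorticoid receptors, and RARA, RARB and VDR, which encode receptors for retinoic acid and vitamin D. They are a list of names, set by a rule that uses no score, and are 10 of 20098 protein-coding genes on the chromosomes of the files. The list was, however, chosen with earlier results of these data known, so counts set beside all genes are descriptive only. For each gene the 100 Kb bins that overlap its GENCODE gene body in hg19 were taken, with 5 bins on either side, which gave 43 gene body bins and 143 bins in all, each of which had a score in all 6 libraries.

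T47D, an established human breast cancer line, expresses estrogen receptor and grows with estrogen. Its parental cells were kept without hormone for 72 h and collected with no estradiol (E2) added (T0) or after 1, 4, 16 and 24 h in 100 nM E2 (T1, T4, T16 and T24). The sixth library came from a tamoxifen-resistant T47D line (TamR), for which no separate starvation or E2 is given. Its label gives its agent as untreated, while the study's methods describe TamR cells as grown with 100 nM tamoxifen. That medium held charcoal-stripped serum, as did the medium in which the parental cells were starved. Contacts were measured by tethered chromatin conformation capture (TCC), a variant of Hi-C in which crosslinked fragments are joined while held on a surface, and each condition has 1 library.

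What follows has no replicate check, therefore, and no test between conditions was made. TamR differs from the parental libraries in cell line and in medium together, and these cannot be told apart. The T47D sections of the sources used here do not say whether a library pooled cultures or whether TamR is 1 clone. The files hold no expression values, so neither the cell type nor the activity of a receptor gene was checked against markers. The score of a bin is the first eigenvector of the contact matrix between chromosomes. A positive score places the bin in compartment A, the active and open part of the genome, and a negative score in compartment B, the inactive part. All scores are given here multiplied by 1000. They are scaled within each library, with squared scores that sum to between 0.998 and 0.999, so a size is relative to the other bins of that library. No contact counts were used here, and the depth behind a score is unknown. Of 27898 bins scored in all libraries, between 12278 (T24) and 13274 (TamR) lay in A, and the median bin scored between −1.08 (T24) and −0.44 (TamR). T24 was thus the lowest and TamR the highest at the median bin, but not throughout. The highest score was 20.09 in T24 and 16.85 in TamR.

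Nuclear receptors are transcription factors that bind a small lipid-soluble ligand, enter or stay in the nucleus and regulate genes through short DNA elements. The estrogen receptors bind as dimers to the estrogen response element, an inverted repeat of GGTCA, while the progesterone, glucocorticoid and mineralocorticoid receptors share an element built on AGAACA, and the retinoic acid and vitamin D receptors pair with a retinoid X receptor. In breast cancer, ERα, the product of ESR1, is the target of tamoxifen, and PGR is a classical E2-induced gene that serves with ESR1 as a clinical marker of hormone response. GPER1 is not a nuclear receptor but a membrane receptor coupled to G proteins.

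The 250 bases before the gene start are shown for ESR1 and PGR, the genes with the largest falls in TamR among the 10, and for RARA, whose window holds the most copies of GGTCA. The sequences were read from GRCh37, which is hg19 on these chromosomes, in the direction of transcription, 5′ to 3′. Capitals mark GGTCA or its reverse complement TGACC, and the other letters are in lower case. The ESR1 window is chr6:151977576-151977825 on the plus strand, that of PGR is chr11:101000545-101000794 on the minus strand, and that of RARA is chr17:38465182-38465431 on the plus strand.
ESR1: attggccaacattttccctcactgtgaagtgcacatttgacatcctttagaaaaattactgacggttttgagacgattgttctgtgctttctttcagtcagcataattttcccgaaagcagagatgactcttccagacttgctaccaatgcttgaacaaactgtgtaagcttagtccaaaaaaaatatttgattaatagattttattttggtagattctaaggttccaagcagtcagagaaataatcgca
PGR: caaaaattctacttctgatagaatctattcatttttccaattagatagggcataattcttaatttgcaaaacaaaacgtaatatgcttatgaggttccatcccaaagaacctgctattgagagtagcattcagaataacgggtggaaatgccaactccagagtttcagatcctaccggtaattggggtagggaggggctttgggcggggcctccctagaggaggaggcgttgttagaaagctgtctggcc
RARA: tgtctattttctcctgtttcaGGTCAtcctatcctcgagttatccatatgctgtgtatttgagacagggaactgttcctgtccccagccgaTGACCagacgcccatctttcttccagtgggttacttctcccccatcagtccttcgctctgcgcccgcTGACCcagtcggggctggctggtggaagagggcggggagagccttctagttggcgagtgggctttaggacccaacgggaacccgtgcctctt

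RARA carried the motif 3 times, at −229, −159 and −92 from the gene start, and ESR1 and PGR carried it 0 times in these windows. ESR2, VDR and GPER1 carried it once each, so 4 of the 10 genes held it on either strand, beside 32.6% of the windows of 20094 protein-coding genes. The full element GGTCANNNTGACC, which contains GGTCA, was in none of the 10 windows and in 0.0398% (8) of all windows. AGAACA on either strand was present in the windows of ESR1 and GPER1, 1 copy each, and in 10.9% of all windows. The PGR window overlaps an exon of the antisense gene PGR-AS1. The ESR1 window precedes the most distal annotated start, and the start of the principal transcript lies 150991 bases further along the gene, in another bin. The principal start also lay in another bin for RARB (740376 bases away), ESRRG (414326), ESR2 (43741), VDR (38054) and NR3C1 (31826). For these genes the windows and start bins are not those of the principal transcript. For GPER1 (5905 bases away) and NR3C2 (2284) the principal start lay in the same bin, but the 250 bases are not those before it. Absence of a motif says only that these letters are not in these 250 bases.

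The 10 genes lay at very different levels, from −4.09 to 14.23 in T0, where scored bins ran from −10.09 to 17.65. Ordered by the mean of the 5 parental libraries at the start bin, the bin that holds the gene start, GPER1 (14.16) and RARA (14.11) came first and their parental ranges overlapped. VDR (8.15), ESR2 (5.30) and ESR1 (3.96) followed, each with a parental range clear of its neighbours, although the lowest ESR2 score (4.92) and the highest ESR1 score (4.90) nearly met. PGR (0.85) and NR3C1 (−0.05) overlapped, as did NR3C1 and NR3C2 (−1.04) at a single point near −0.51, and ESRRG (−3.82) and RARB (−3.85) came last with overlapping ranges. The genes high in A lay among many other genes: the windows of GPER1, RARA, VDR and ESR2 held 17, 34, 17 and 15 protein-coding gene starts, their own included, and those of the other 6 held 2 to 7.

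**Figure D1:**
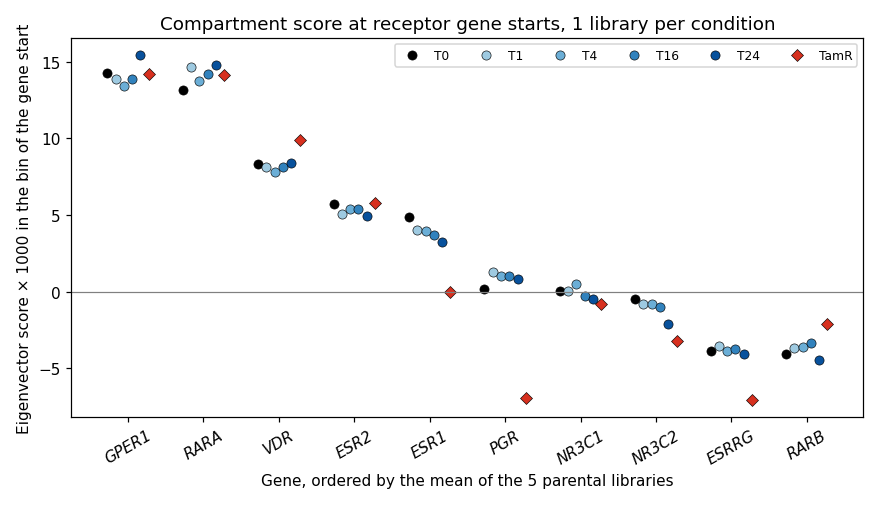
Score × 1000 in the bin of the gene start (vertical axis) for the 10 receptor genes, ordered by the mean of the 5 parental libraries. Each point is 1 library, circles for T0 to T24 and a red diamond for TamR, and the line at 0 separates A from B. The TamR diamonds of ESR1 (−0.05), PGR (−6.92) and ESRRG (−7.04) lie well under their parental circles, and those of VDR (9.86) and RARB (−2.14) lie above them.

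Between T0 and TamR, the start bins of ESR1, PGR and NR3C1 changed from A to B, 3 of 10, beside 4.53% of 19670 protein-coding genes scored in all libraries. None of the 10 changed from B to A, beside 5.20% of all genes. The number of the 10 in A was 7 at T0, T1 and T4, 6 at T16 and T24, and 4 in TamR (ESR2, RARA, VDR and GPER1). Of all genes, 77.7% were in A in T0 and 78.4% in TamR. The median difference TamR minus T0 over the 10 genes was −0.45, beside −0.38 over all genes. Only 1 of the 3 changes of compartment went with scores far from 0 on the B side: PGR fell to −6.92, whereas ESR1 and NR3C1 ended at −0.05 and −0.79. With start bins of a small absolute score in either library left out (below the 10th percentile, 0.95 in T0 and 0.91 in TamR), 0 of the 3 changes remained, since T0 scores of PGR and NR3C1 and TamR scores of ESR1 and NR3C1 were this small.

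A measure that does not depend on the border is whether TamR lay outside the parental range by more than the width of that range. That width includes any effect of E2 and is not a replicate error. By it, ESR1, PGR and ESRRG were lower in TamR, 3 of 10, beside 19.9% of all genes. RARB and VDR were higher, 2 of 10, beside 16.9%. Over all genes the median parental width was 1.18, and the absolute difference of TamR from T0 had a median of 1.33 and a 95th percentile of 5.09. Taken at the principal transcript's start instead of the gene start, ESR1 and PGR remained past this limit and the count was 2, because VDR, RARB and ESRRG were then less than 1 width away. By percentile rank in place of the score, 6 genes passed it: NR3C1 and NR3C2 were then also lower, and RARB was no longer higher.

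**Figure D2:**
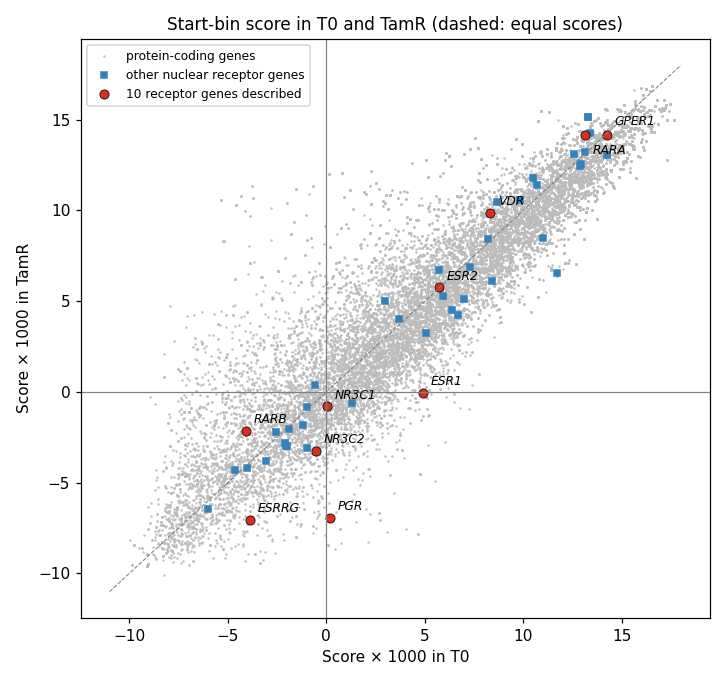
Start-bin score × 1000 in T0 (horizontal) and TamR (vertical). Grey points are protein-coding genes, blue squares the other nuclear receptor genes and red circles the 10 receptor genes, and the dashed line marks equal scores. ESR1 (4.90 and −0.05) and PGR (0.17 and −6.92) lie at the lower edge of the cloud, and GPER1 (14.23 and 14.18) lies on the line.

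ESR1 (chr6:151977826-152450754, plus strand, 472.9 kb) encodes ERα, the receptor through which E2 drives the growth of these cells. Its start bin scored 4.90 in T0, 4.03 in T1, 3.94 in T4, 3.68 in T16, 3.26 in T24 and −0.05 in TamR. The 5 parental scores lay in A and fell at each step of the E2 series, and the gap from the lowest of them to TamR was −3.31. As a rank among the scored bins of each library, ESR1 went from the percentile 77.6 in T0 to 72.5 in T24 and 52.2 in TamR. The fall of 4.95 from T0 to TamR was among the largest of all genes, at the percentile 1.3 of that difference.

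Along the gene, the score declined from the start toward the 3′ end in the parental libraries, by 4.26 over the gene body in T0, while in TamR the body was nearly flat, with 0.76 between its first and last bin. All 6 gene body bins were in A in T0, T4 and T16, 5 in T1 and T24, and 0 in TamR. The bin of the principal transcript's start scored 3.35 in T0, 2.41 in T1, 3.04 in T4, 2.22 in T16, 1.76 in T24 and −0.09 in TamR, so the fall at each step did not hold there. TamR was the lowest library at either start and close to the border at both.

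The A domain that held ESR1 ended 622 kb downstream of the gene start in T0 and T4, 522 kb in T16 and 422 kb in T1 and T24, the last of these inside the gene. In TamR the border lay upstream of the start, at −178 kb, and the gene stood at the edge of a B domain of 5600 kb. Of 16 window bins, 8 changed from A to B between T0 and TamR, and TamR was below all parental libraries in 12. The neighbour CCDC170, whose start lies 163 kb away, went from 5.30 in T0 to −0.14 in TamR, and ARMT1, RMND1 and ZBTB2, in 1 shared bin further upstream, went from 5.30 to 1.14. The lower TamR score covered upstream neighbours as well as ESR1, whereas the bins beyond its 3′ end were in B in every library from the second bin onward, as the plot of 4 loci shows.

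**Figure D3:**
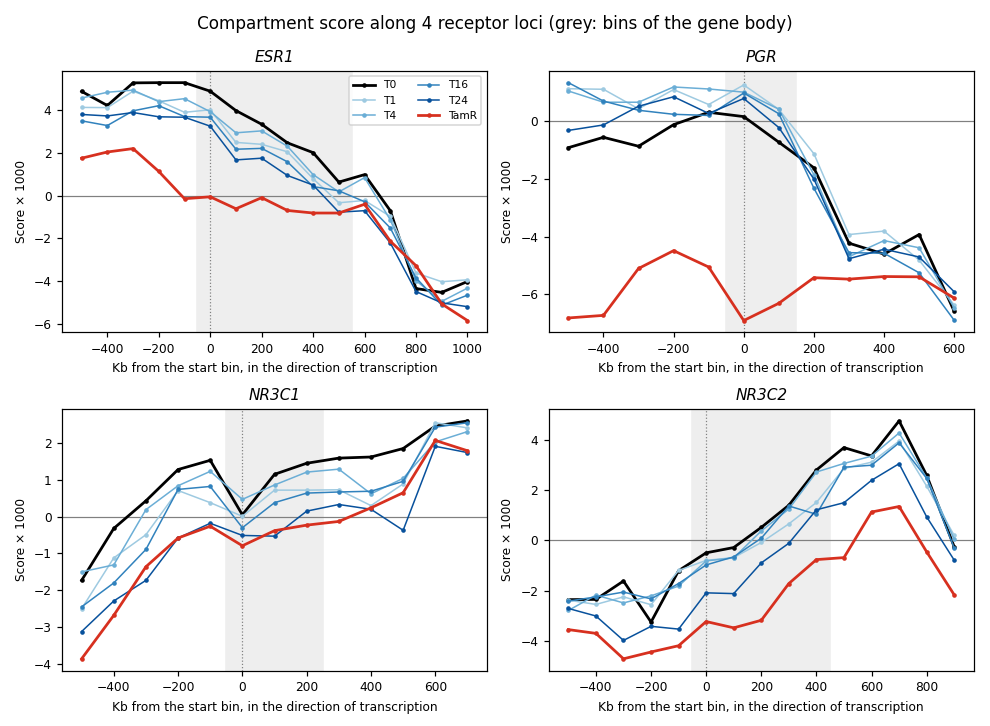
Score × 1000 (vertical) by distance from the start bin in Kb, in the direction of transcription, for ESR1, PGR, NR3C1 and NR3C2. Lines are libraries, black for T0, blue for the E2 time points and red for TamR, and grey shading marks the gene body. In TamR the ESR1 body is just under 0 (mean −0.51, against 2.89 in T0) and the PGR start bin is at −6.92, far from the parental scores of 0.17 to 1.27.

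ESR2 (chr14:64550950-64804830, minus strand) encodes ERβ, the second nuclear estrogen receptor. The score of its start bin was 5.71 in T0, 5.06 in T1, 5.40 in T4, 5.42 in T16, 4.92 in T24 and 5.76 in TamR. TamR exceeded the highest parental score by only 0.05, and the gene was in A throughout. The start bin holds only 4830 bases of the gene. In all 4 gene body bins TamR was above all parental libraries. The bin of the principal transcript's start scored 4.32 in T0 and 4.57 in TamR. Downstream of the gene the libraries parted further: the last window bin scored 1.02 in T0, −0.32 in T24 and 4.10 in TamR. TamR was above all parental libraries in 11 of 14 window bins and below them in 0. At ESR1 the counts were 1 above and 12 below of 16. Of all scored bins of the genome, TamR was above all parental libraries in 35.0% and below them in 43.6%. In this TamR library most bins of the 2 windows thus lay on opposite sides of the parental libraries, but neighbouring bins are not separate events.

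ESRRG (chr1:216676588-217311097, minus strand) encodes an orphan receptor related to ERα that does not bind E2. In the start bin the score was −3.87 in T0, −3.53 in T1, −3.85 in T4, −3.77 in T16, −4.08 in T24 and −7.04 in TamR. The 5 parental scores lay within 0.55 of each other, and TamR was 2.96 under the lowest. The bin of the principal transcript's start differed less, with −5.69 in T0 and −6.61 in TamR. All 8 gene body bins were lower in TamR than in each parental library, with a body mean of −6.49 against −4.60 in T0. The difference was larger at the start than toward the 3′ end, where the last body bin scored −6.24 in T0 and −6.72 in TamR. The gene was already in B, so no compartment changed.

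GPER1 (chr7:1121844-1133451, plus strand), the membrane estrogen receptor, sits in 1 bin high in A. It scored 14.23 in T0, 13.86 in T1, 13.40 in T4, 13.86 in T16, 15.43 in T24 and 14.18 in TamR. TamR fell inside the parental range, and the spread came mostly from T24, whose scores were also the highest of the parental libraries in each of the 11 window bins. In the fourth bin downstream the TamR score was 11.29 against 13.94 in T0, and TamR was below all parental libraries in 4 window bins.

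PGR (chr11:100900355-101000544, minus strand, 100.2 kb) encodes the progesterone receptor. Its start bin scored 0.17 in T0, 1.27 in T1, 1.02 in T4, 0.99 in T16, 0.80 in T24 and −6.92 in TamR. The 5 parental scores were all just inside A, T0 was the lowest of them, and TamR minus T0 was −7.09. This bin holds only the first 544 bases of the gene. The other body bin, which holds the rest, was already in B in T0 (−0.72) and T24 (−0.21), was in A at 0.27 to 0.43 in T1, T4 and T16, and scored −6.32 in TamR, so the mean over both bins was −0.28 in T0 and −6.62 in TamR. The start-bin difference was at the percentile 0.2 of all genes, the lowest of the 10 receptor genes, and as a rank the bin went from 54.8 in T0 to 14.2 in TamR.

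With E2 the start bin of PGR scored higher than in T0 at each of the 4 time points. T0 lay below the range of the 4 E2 libraries by more than its width, which held for PGR alone of the 10, beside 5.0% of all genes. The mean of the E2 libraries was 0.85 above T0. The step from T0 to T1 was 1.10. Between the E2 libraries T1 and T4 the absolute difference over all genes had a median of 0.37 and a 95th percentile of 1.15, so the step was near the upper end of what these libraries differed by. With the score averaged over the start bin and its neighbours on either side, PGR was no longer past that limit. The window had 2 of 12 bins in A in T0, 7 in T1, T4 and T16, 4 in T24 and 0 in TamR. The A domain that held the gene start measured 200 kb in T0, 2100 kb in T1 and T4, 2000 kb in T16 and 400 kb in T24. In TamR the gene lay inside a B domain of 5800 kb, and the score was under all parental libraries in 11 of 12 window bins. The difference was largest from the gene body upstream. In the most distant upstream bin the score was −0.91 in T0 and −6.83 in TamR, while in the most distant downstream bin it was −6.60 and −6.14.

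NR3C1 (chr5:142657496-142815077, minus strand) encodes the glucocorticoid receptor. At its start the score was 0.05 in T0, 0.01 in T1, 0.47 in T4, −0.30 in T16, −0.51 in T24 and −0.79 in TamR. It was the gene nearest to the border and the only one of the 10 whose start bin changed compartment from T0 at an E2 time point, beside 5.70% of all genes. TamR lay 0.28 under the lowest parental score, less than the parental width of 0.98, so the change of compartment from T0 rests on small scores. In the bin of the principal transcript's start TamR (−0.38) lay inside the parental range, which ran from 1.15 in T0 to −0.53 in T24. Of 13 window bins, TamR was below all parental libraries in 6 and within their range in 7. The mean over the gene body went from 0.89 in T0 to −0.30 in T24 and −0.47 in TamR, and the window bins in A numbered 11, 10, 11, 9 and 5 of 13 from T0 to T24 and 4 in TamR. The median bin of T24 was the lowest of the libraries. By percentile rank within each library the start bin at T24 (53.2) lay inside the range of the other parental libraries (52.1 to 55.5). By the same rank TamR (48.0) lay under the parental range by more than its width.

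NR3C2 (chr4:148999913-149365850, minus strand, 365.9 kb) encodes the mineralocorticoid receptor. The start bin had scores of −0.50 in T0, −0.80 in T1, −0.82 in T4, −0.98 in T16, −2.09 in T24 and −3.23 in TamR. All were in B, and as in the start bin of ESR1 the score fell at each step from T0 to T24. The means over the gene bodies did not fall at each step, since T4 exceeded T1 in both genes (2.24 and 1.91 for ESR1, 0.56 and 0.12 for NR3C2). Such a fall in the start bin occurred in 2 of 10 genes, beside 2.26% of all genes, and a rise at each step in 0 of 10, beside 2.73%. T0 lay above the E2 range by more than its width in ESR1 alone, 1 of 10, beside 4.72%. ESR1 did not pass this limit at the principal transcript's start, with the gene body mean or with the mean of 3 bins.

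The NR3C2 gene runs from B at its start into A at its 3′ end, and the border inside it moved. The B domain that holds the start began at 149200001 in T0, T4 and T16, 149100001 in T1, 149000001 in T24 and 148800001 in TamR, where it took in the whole gene. Gene body bins in A numbered 3 of 5 in T0, T4 and T16, 2 in T1, 1 in T24 and 0 in TamR. In every one of the 15 window bins TamR was below all parental libraries, with a mean difference from T0 of −2.74. The start bin itself was 1.14 under the lowest parental score, within 1 parental width (1.59), and it passed that limit by percentile rank, by the mean of the gene body and when T24 was left out.

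**Figure D4:**
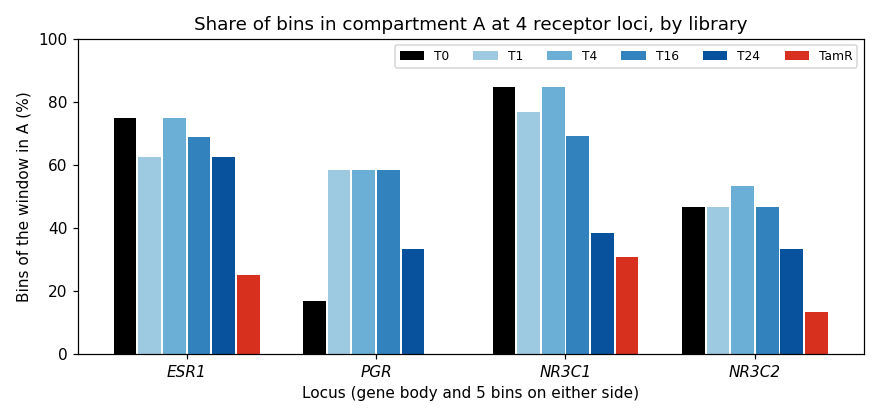
Share of window bins in compartment A in percent (vertical, from 0) at ESR1, PGR, NR3C1 and NR3C2, 1 bar per library. In TamR 4 of 16 bins were in A at ESR1, 0 of 12 at PGR, 4 of 13 at NR3C1 and 2 of 15 at NR3C2, fewer than in any parental library at each locus.

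RARA (chr17:38465432-38513895, plus strand), which encodes retinoic acid receptor α, scored 13.15 in T0, 14.68 in T1, 13.76 in T4, 14.21 in T16, 14.76 in T24 and 14.14 in TamR. T0 was the lowest and TamR lay inside the parental range. All 12 window bins were in A in each library, and the A domain measured 8800 or 9600 kb. The thyroid hormone receptor gene THRA, in the same gene-dense stretch, scored 13.29 in T0 and 15.17 in TamR.

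RARB (chr3:24729378-25639423, plus strand, 910.0 kb) encodes retinoic acid receptor β. Its start bin scored −4.09 in T0, −3.70 in T1, −3.64 in T4, −3.37 in T16, −4.46 in T24 and −2.14 in TamR. TamR was 1.23 above the highest parental score but still in B. The bin of the principal transcript's start scored −3.70 in T0 and −2.99 in TamR, a smaller difference. The gene body was higher in TamR than in all parental libraries in 8 of 10 bins and lower in 1, its last, where T0 scored −1.97 and TamR −3.78. The parental profile, lowest in the middle of the gene and rising toward its 3′ end, was flattened in TamR.

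VDR (chr12:48235320-48336831, minus strand) encodes the vitamin D receptor. The scores of the start bin were 8.32 in T0, 8.15 in T1, 7.78 in T4, 8.14 in T16, 8.39 in T24 and 9.86 in TamR. The parental scores lay within 0.61, and TamR was 1.47 above the highest. The bin of the principal transcript's start scored 9.01 in T0 and 9.86 in TamR. In each of 12 window bins TamR exceeded all parental libraries, by a mean of 1.16 from T0. The A domain around VDR measured 9000 to 9200 kb in the parental libraries and 12900 kb in TamR.

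**Figure D5:**
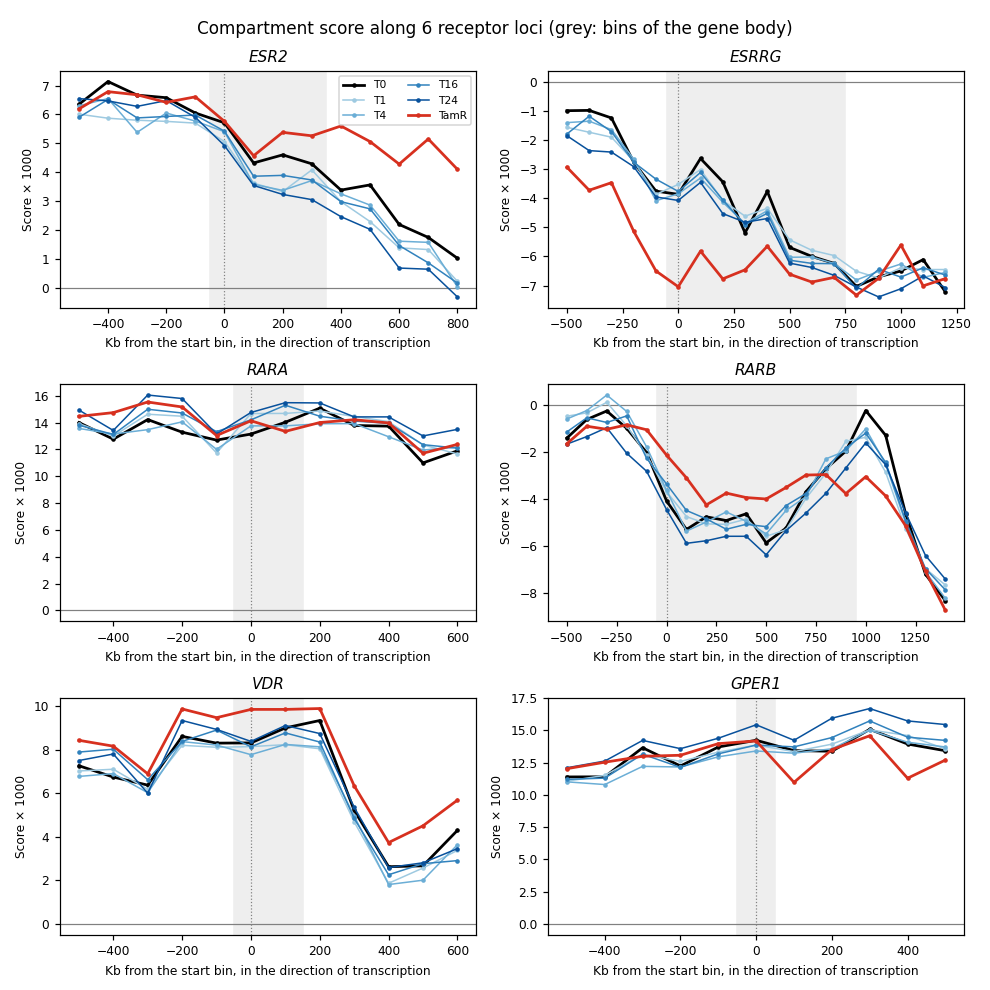
Score × 1000 (vertical) by distance from the start bin in Kb, in the direction of transcription, for ESR2, ESRRG, RARA, RARB, VDR and GPER1. Lines are libraries, black for T0, blue for the E2 time points and red for TamR, and grey shading marks the gene body. TamR runs above the other lines along VDR and from the body of ESR2 downstream, and under them at the start of ESRRG (−7.04).

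Over the 143 window bins of the 10 genes, 81 were in A in T0, 84 in T1, 88 in T4, 83 in T16, 72 in T24 and 59 in TamR. From T0 to TamR 22 of them (15.4%) changed compartment, beside 13.9% of 27898 scored bins of the genome, a share close to the background. All 22 changed from A to B and 0 from B to A, while over the genome 1748 bins changed from A to B and 2141 from B to A. Within the gene bodies alone 13 of 43 bins (30.2%) changed, and the gene body bins in A numbered 22, 21, 23, 22 and 17 from T0 to T24 and 9 in TamR. Neither count was taken over the gene bodies of all genes, so no matching background stands beside them. These bins are neighbours and come from 4 loci, ESR1 (8 window bins), NR3C1 (7), NR3C2 (5) and PGR (2), so they are not 22 separate events. Most also had a score near 0 in T0 or in TamR. The changed ESR1 bins ended between −0.81 and −0.05 in TamR, and those of NR3C1 between −1.36 and −0.13. The changed PGR bins began at 0.17 and 0.32 in T0. At NR3C2 the changed bins ended between −3.18 and −0.46. Small scores were left out for start bins only, not for these counts. TamR was lower than all parental libraries in 69 of 143 window bins (48.3%), beside 43.6% of scored bins. It was higher than all of them in 35 (24.5%), beside 35.0%.

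The other 39 genes of the nuclear receptor superfamily gave a comparison. They are not fully separate from the 10 loci, since some start inside these windows, such as THRA at RARA and THRB at RARB. Of these, 26 were in A in each of the 6 libraries, with 1 change from A to B between T0 and TamR, NR1D2 (1.31 and −0.59), which encodes a heme-binding repressor of the circadian clock, and 1 from B to A, NR1I2 (−0.59 and 0.36), which encodes the pregnane X receptor. Over all genes, 4.53% changed from A to B and 5.20% from B to A. None of the 39 changed at an E2 time point, beside 5.70% of all genes. Their median difference TamR minus T0 was −0.35, against −0.45 for the 10 genes. In TamR 4 of the 39 were below the parental range by more than its width, beside 19.9% of all genes, and 5 above it, beside 16.9%.

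Some genes elsewhere in the genome had start bins with nearly the same scores in the 6 libraries, measured as the Euclidean distance over the 6 scores × 1000. Those nearest to ESR1 were BCL2L10 on chromosome 15 (0.53) and COMMD2 on chromosome 3 (0.54), which scored 4.68 and 5.05 in T0 and 0.25 each in TamR. The genes nearest to PGR were CPA3 on chromosome 3 (1.57) and TARP on chromosome 7 (1.62), with TamR scores of −7.53 and −5.94. No gene came as close to PGR as these did to ESR1. For NR3C1 the nearest were CLVS1 (0.49) and OTULINL (0.58).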

How the data were processed

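TCC libraries of 6 conditions of T47D cells, 1 library each, were used. Per the study's methods, the authors aligned the reads to hg19 iteratively with bowtie2 in HiCLib, removed duplicate and self-ligated pairs and poorly covered bins, corrected the matrix of contacts between chromosomes iteratively and took its first eigenvector. They deposited 1 score per 100 Kb bin and library, with 0 for a bin without a value, and such bins were left out here. Only contacts between chromosomes enter the score, and its size is scaled within a library. Counts used the signs, order and ranges of the scores, with percentile ranks as an alternative. Differences, means and distances of scores compare sizes across libraries and are descriptive only. Scores were multiplied by 1000, and a positive score was read as compartment A.

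Genes came from GENCODE 44 mapped to GRCh37, whose lengths equalled those of the files for 23 of 23 chromosomes. Each gene was read in the bin of its start, in its body and in 5 bins on either side. With 1 library per condition no test was made, and counts stand beside the same count over all protein-coding genes or bins. The counting was tested on simulated tracks and run in Python 3.11.15 with pandas 2.3.3, numpy 2.4.6 and matplotlib 3.10.9. All 10 receptor genes are named. Named besides them are those of the 39 other receptor genes that changed compartment, up to 5 genes nearest to each start within its window, and the 2 genes nearest in pattern to each of the genes that changed compartment. THRA was named after its values were seen, and 1 gene that the rule also named is not reported here. The receptor genes and lists were chosen with earlier results of these data known. Alternatives were another border, other bins for the gene, ranks, wider windows, weak bins left out and each library left out in turn.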

Additional observations from a re-analysis of the deposited data

Results flagged for a closer look

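In 4 of the 10 receptor genes, 1 library stood apart from the other 5 at the start bin by Dixon's ratio of the gap to the whole range, and in each it was TamR. The ratio was 0.668 for ESR1 and 0.866 for PGR, where TamR was the lowest, 0.707 for VDR, where it was the highest, and 0.843 for ESRRG, where it was again the lowest. The 6 libraries are conditions and not replicates, and such a ratio in a group of 6 replicates would occur by chance in about 1 of 20 groups. Over all 19670 protein-coding genes 25.2% passed the same limit. TamR was the separate library in 23.3% of all genes, and in 11.3% of all genes it was separate on the low side.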

How the results depend on the processing

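No paired analysis was possible because the 6 conditions have 1 library each. With start bins of a small absolute score left out, 0 in place of 3 receptor genes changed compartment from T0 to TamR, since ESR1, PGR, NR3C1 and NR3C2 were removed by construction. The count stayed at 3 with the border at each library's median (PGR, NR3C1 and NR3C2, without ESR1) and with the mean of the gene body (ESR1, NR3C1 and NR3C2, without PGR), and it was 2 with the mean of 3 bins (ESR1 and NR3C1, again without PGR). Changes over E2 numbered 3 with the gene body mean (PGR, NR3C1 and NR3C2) and 2 with the mean of 3 bins (PGR and NR3C1), in place of 1. TamR was clear of the parental range in 2 genes at the principal transcript's start (ESR1 and PGR), in place of 5, and in 6 by percentile rank. T0 was clear of the E2 range in 1 gene with the gene body mean (PGR), in 0 with the mean of 3 bins and in 4 without T24 (ESR1, PGR, NR3C2 and RARB), in place of 2. At the principal transcript's start the count stayed at 2, with ESR2 in place of ESR1. The share of bins that changed from T0 to TamR was 30.2% in the gene bodies alone and 12.3% with 10 bins on either side, against 15.4%. The causes of these shifts were not tested. Of 30 scores of TamR minus T0 for single genes under other bins, 13 stayed within 1 parental SD of the start-bin value, 17 moved beyond it, and 0 changed the sign of a difference clear of the parental range. By percentile rank, 5 of 10 genes kept both direction and their side of the parental limit. Depth is unknown. The parental spread, which includes any E2 effect and is not a replicate error, is the only spread these files give.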
